A study of Mus musculus with 12 samples.

Results

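The 9 genes described here run the synthesis, control and breakdown of the polyamines. They are Odc1, Amd1, Srm and Sms (synthesis), Azin1, Oaz1 and Oaz2 (control of Odc1) and Sat1 and Smox (breakdown). They were taken by symbol from the feature list of the count matrices, where they make up 9 of 32286 genes. A further list of 25 genes around the pathway is described by counts. The data are single-cell RNA-seq (scRNA-seq) profiles of superior mesenteric ganglia (SMG), the sympathetic ganglia in which Th-MYCN mice form neuroblastoma, from 12 mice of strain 129+Ter/SvJcl. They comprised 1 wild-type (WT) mouse aged 3 weeks, 10 Th-MYCN+/- mice aged 3 weeks (#1 to #10) and 1 Th-MYCN+/- mouse aged 6 weeks. Th-MYCN+/- mice are hemizygous for a human MYCN transgene under the rat tyrosine hydroxylase promoter, which acts in sympathetic cells, and WT mice lack it. The 6-week-old mouse was picked because a macroscopic tumor was visible at dissection, so it stands for 1 tumor and not for its age, and WT also rests on 1 mouse.

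Polyamines (putrescine, spermidine and spermine) are small, positively charged molecules that bind nucleic acids and are needed for translation and growth. Ornithine decarboxylase (Odc1) makes putrescine, Amd1 makes the aminopropyl donor, and Srm and Sms use it to make spermidine and spermine. The antizymes Oaz1 and Oaz2 bind Odc1 protein, block it and send it to the proteasome, and the antizyme inhibitor Azin1 frees Odc1 from them. Sat1 acetylates spermidine and spermine for export or degradation, and Smox oxidizes spermine back to spermidine. Odc1 is a classic MYC target gene, and the pathway is a drug target in neuroblastoma. Antizyme itself is made only when ribosomes shift reading frame on its mRNA, which polyamines promote.

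The site of that frameshift is shown because it is what sets the antizymes apart from the other members. The lines below give 52 bases of the Oaz1 and Oaz2 transcripts (GENCODE transcripts on GRCm38), with the last codon of the first reading frame and the stop codon after it in capitals. The capitals lie at chr10:80828292-80828297 (plus strand) for Oaz1, and at chr9:65686269-65686274 (plus strand) for Oaz2, where 3 coding models of Oaz1 and 2 of Oaz2 leave a gap of 1 base. The stretches share 43 of 52 bases at equal positions.
Oaz1: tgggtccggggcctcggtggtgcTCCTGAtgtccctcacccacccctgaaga
Oaz2: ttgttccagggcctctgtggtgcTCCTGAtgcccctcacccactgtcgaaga
Unique molecular identifiers (UMIs) at the 3' end of a transcript count antizyme mRNA, and do not measure how often its ribosomes shifted frame.

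Start-site windows of Odc1 and of Sms, the synthesis genes at the first and last step, are given next with their E-box count. The E-box CACGTG, the letters that MYC family proteins are known to bind, reads the same on both strands. It was searched in RefSeq windows (GRCm38.p6) of 250 bases before to 50 after each transcript start. Windows were at hand for 7 of the 9 members, 8 windows in all, and not for Azin1 and Srm. The motif stood in 1 of these 8 windows, the distal Sms start at chrX:157492238-157492537 (minus strand), 196 bases before the start, and in 7.15% of all 32851 windows. The Odc1 window, chr12:17544623-17544922 (plus strand), held no match and was 78.0% G or C. Capitals mark the E-box.
Sms: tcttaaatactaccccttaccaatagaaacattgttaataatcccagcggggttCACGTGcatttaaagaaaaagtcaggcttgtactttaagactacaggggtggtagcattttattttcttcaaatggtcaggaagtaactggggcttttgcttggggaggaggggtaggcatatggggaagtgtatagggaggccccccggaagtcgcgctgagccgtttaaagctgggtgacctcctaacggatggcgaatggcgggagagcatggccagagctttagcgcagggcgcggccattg
Odc1: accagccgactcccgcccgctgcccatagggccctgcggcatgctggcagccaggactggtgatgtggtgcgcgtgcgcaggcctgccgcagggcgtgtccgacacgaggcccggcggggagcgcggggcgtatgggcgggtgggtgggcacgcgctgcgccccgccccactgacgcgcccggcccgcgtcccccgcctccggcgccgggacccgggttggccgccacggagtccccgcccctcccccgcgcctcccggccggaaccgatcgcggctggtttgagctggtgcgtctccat
The missing match says only that these letters are not in this window.

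A total of 12070 cells were kept. WT gave 618 of them, the 6-week-old animal 945, and each 3-week-old Th-MYCN+/- animal 522 to 1887. The libraries held 1147772 UMIs (WT), 4824039 UMIs (6-week-old) and 1444554 to 6388766 UMIs (#1 to #10), and the median cell had 555.5, 1664 and 697.5 to 2367 UMIs. Cells were clustered with all members left out and named from marker genes. The classes compared were neuroblast-like (3099 cells), Schwann-like (2890), ganglion-like (2762), endothelial-like (533) and macrophage-like (242). Small NKT-like (43), fibroblast-like (141) and myofibroblast-like (168) classes were also named, and 2192 cells stayed unnamed. Unnamed clusters of 1350 and 767 cells, with medians of 445.5 and 593 UMIs, came nearest to the neuroblast markers without meeting the naming rule. The neuroblast-like class had a median of 4414 UMIs, so it may lack shallow cells of its kind. A shallow cluster of 977 cells (median 529 UMIs) was named ganglion-like. The macrophage-like class also held cells with B cell genes (Igkc was among its 10 leading genes), and at clustering resolution 1.0 the naming gave 193 macrophage-like and 49 B-like cells, so its levels are those of a mixed class. Mouse #2 stood apart, with 1535 ganglion-like but only 52 neuroblast-like cells (37201 UMIs) and 8 Schwann-like cells (4088 UMIs), beside 181 unnamed cells. Its library also differed. Kept cells held 39.1% of its UMIs, against 74.1% to 87.1% in the other 3-week-old Th-MYCN+/- libraries. It had 9893 barcodes over 100 UMIs, where those had 902 to 2131. The largest ganglion-like cluster (1379 cells) drew 87.8% of its cells from #2. The WT mouse had 34 neuroblast-like cells with a median of 344 UMIs, so its values for that class rest on few counts. Transgene UMIs in neuroblast-like cells ranged from 80.6 to 579 CPM (defined next) in the 10 mice and stood at 448 CPM in the 6-week-old mouse. They numbered 0 of 12896 in the WT mouse, where the limit that a count of 0 allows (3 counts) is 233 CPM. Barcode letters of 187 of the 12070 cells also occurred in another library.

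Levels are in CPM, meaning the gene's UMIs out of each 1000000 UMIs that a class held in a mouse. Since each transcript yields UMIs at its 3' end only, levels are compared between classes and mice for the same gene, not between genes. Differences between classes are log2 fold changes ± SE from edgeR's quasi-likelihood test on the summed UMIs of the 10 3-week-old Th-MYCN+/- mice, with the mouse as block and p-values adjusted over all genes tested.

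Neuroblast-like cells had higher levels of 3 synthesis genes and lower levels of both antizymes than ganglion-like cells of the same mice. All 9 members passed the filter on low counts there, and 5 of them passed the test, 3 higher (Srm, Odc1 and Amd1) and 2 lower (Oaz2 and Oaz1), while 67.7% of all 7198 genes tested passed it (33.9% higher and 33.7% lower). A share of 5 in 9 is not above that background, and the median log2 fold change was 0.15 over the members and 0.02 over all genes. Against Schwann-like cells, 7 of 9 members passed, 4 higher (Sms, Srm, Odc1 and Oaz2) and 3 lower (Smox, Sat1 and Azin1), beside 68.8% of 5624 genes (37.5% higher and 31.3% lower). A share of 7 in 9 is near that background, and the median was 0.03 over the members and 0.11 over all genes.

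**Figure D1:**
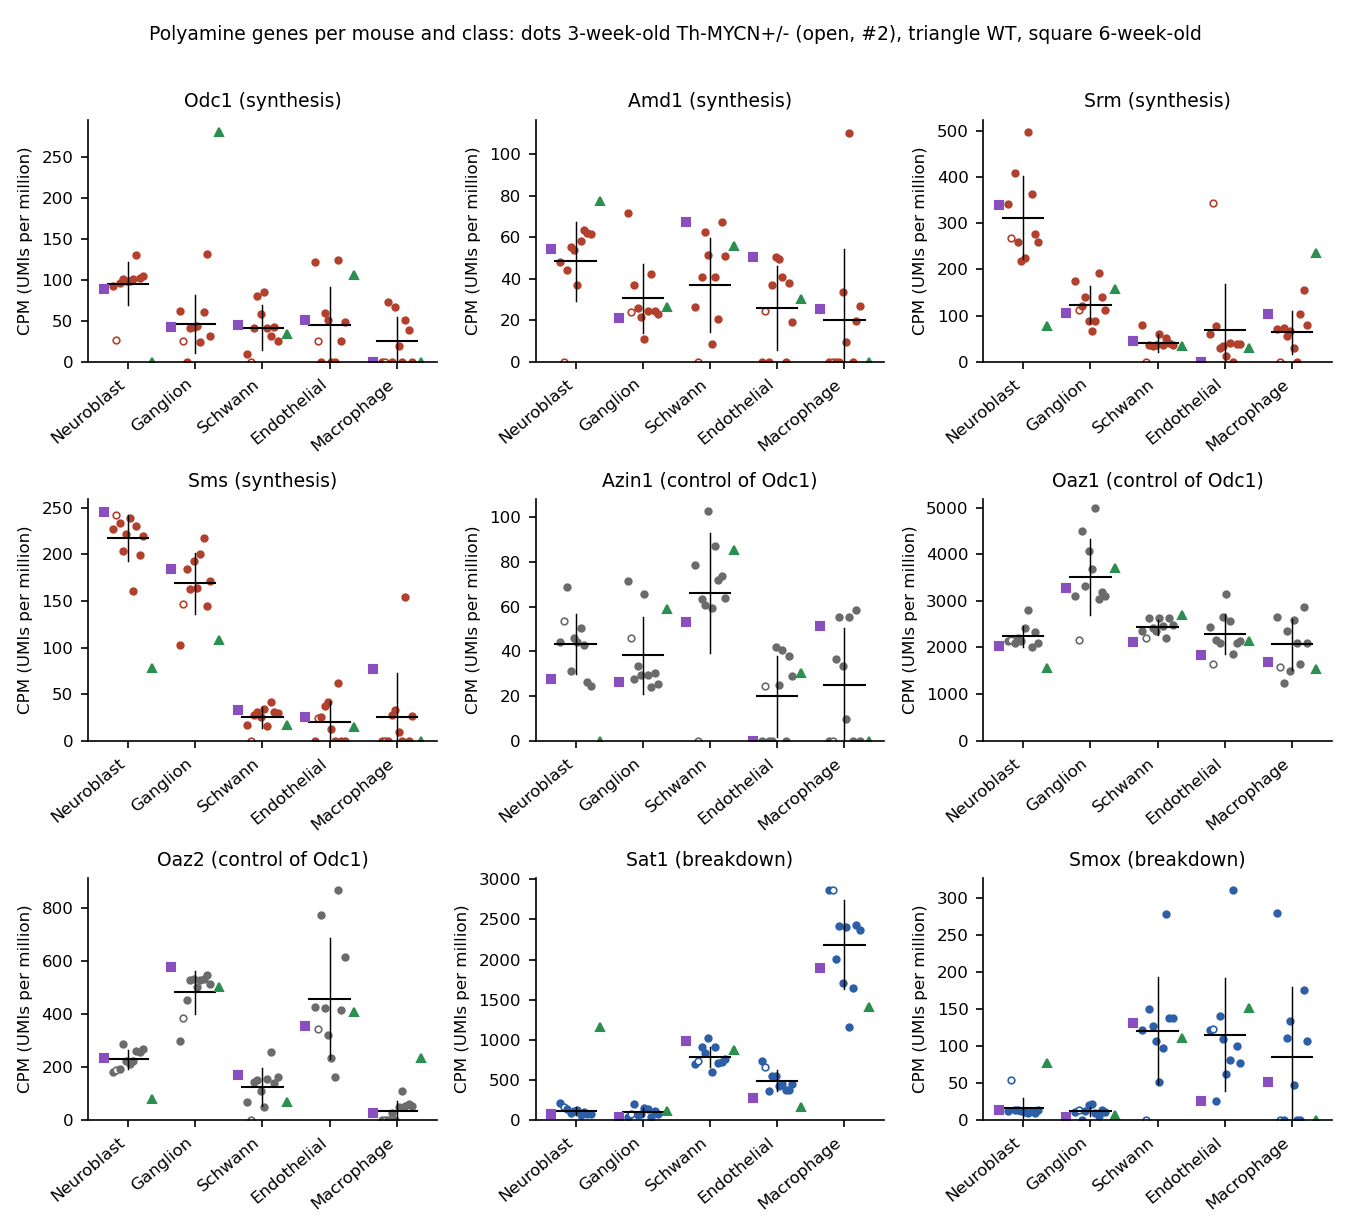
Level of each member (CPM, linear axis from 0) in 5 classes, with 1 point per mouse. Dots are the 3-week-old Th-MYCN+/- mice (open dot, #2) with their mean and SD as lines, the triangle is the WT mouse and the square the 6-week-old mouse. Srm and Sms stand highest in neuroblast-like cells, and Sat1 in macrophage-like cells (mean 2185 CPM).

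Odc1, the first enzyme of the pathway, was measured at 26.9 CPM in the lowest, 99.9 in the median and 131 in the highest of the 10 mice in neuroblast-like cells. The lowest was #2, with 1 Odc1 UMI, and the other 9 mice lay between 91.9 and 131 CPM. Ganglion-like cells ran from 0 through a median of 41.7 to 131 CPM, and Schwann-like cells from 0 through 40.9 to 84.9 CPM. The neuroblast-like mean was 95.2 ± 26.2 CPM (SD, n = 10), against 46.1 ± 35.0 in ganglion-like and 41.3 ± 27.6 in Schwann-like cells, so ranges overlapped but most mice were separated. Odc1 was higher in neuroblast-like than ganglion-like cells by 1.10 ± 0.26 on the log2 scale (edgeR adjusted p = 0.000961, 9 of 10 mice), and than Schwann-like cells by 0.89 ± 0.23 (adjusted p = 0.00197, 10 of 10 mice).

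The exception among the 10 mice was #9, at 131 CPM of Odc1 in ganglion-like cells, and the WT mouse stood higher still, at 281 CPM. Both values came from 1 cell each. In the WT mouse, 71 of 86 Odc1 UMIs lay in 1 of 88 ganglion-like cells, which held 4864 UMIs in all, and the next cell had 2. In #9, 63 of 91 Odc1 UMIs lay in 1 of 102 cells. Without these cells the levels were 49.9 CPM (WT) and 42.1 CPM (#9), inside the 0 to 61.4 CPM of the other mice. The Odc1 difference between neuroblast-like and ganglion-like cells was then 1.36 ± 0.21 (edgeR adjusted p = 1.18e-05, 10 of 10 mice). Only 4 of 12070 cells had at least 20 Odc1 UMIs. Besides the WT and #9 cells, they were 1 Schwann-like cell of #4 (20 of the 45 Odc1 UMIs of that sum) and 1 neuroblast-like cell of #10 (24 of 249). Each held under 50% of the Odc1 UMIs of its sum and was kept. The larger Odc1 difference thus came from leaving out a cell on the ganglion-like side only. The WT cell also held 113 UMIs of Fxyd6, 102 of Fam155a and 72 of Klf7, each more than 10 times the number given by the other ganglion-like cells' rate, and what made these counts high was not tested. Leaving out cells that held over 50% of the UMIs of a sum was decided after the values were seen.

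**Figure D2:**
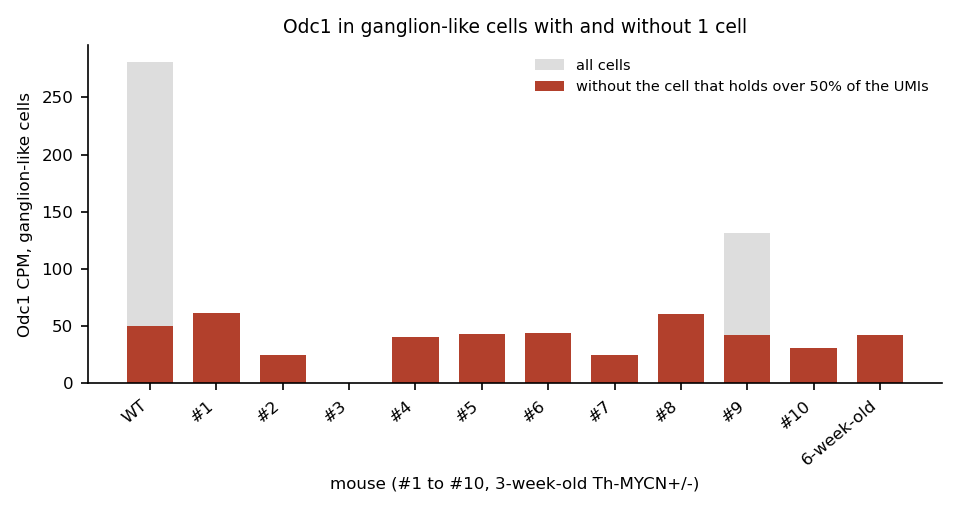
Odc1 level in ganglion-like cells (CPM, bars from 0) of the WT mouse, #1 to #10 and the 6-week-old mouse. Grey shows all cells and red the level without the 1 cell that held over 50% of the Odc1 UMIs, which lowers WT from 281 to 49.9 CPM and #9 from 131 to 42.1 CPM.

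Srm, spermidine synthase, was higher in neuroblast-like than in ganglion-like cells. Its lowest, median and highest values were 219, 273 and 498 CPM in neuroblast-like cells and 65.6, 116 and 193 CPM in ganglion-like cells, so the 2 ranges did not overlap. The means were 312 ± 89.8 and 123 ± 39.7 CPM (SD, n = 10), a log2 difference of 1.27 ± 0.17 (edgeR adjusted p = 1.29e-06, 10 of 10 mice). Schwann-like cells had 40.7 ± 20.2 CPM, with #2 at 0, and lay lower by 2.59 ± 0.19 (adjusted p = 1.07e-10, 10 of 10 mice). Endothelial-like and macrophage-like cells had 67.6 ± 99.9 and 63.3 ± 47.0 CPM of Srm. The endothelial-like spread came from #2, at 345 CPM from 14 UMIs, where the next mouse had 77.4 CPM.

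Sms, spermine synthase, was high in both neuronal classes and low elsewhere. Its lowest, median and highest values were 161, 225 and 242 CPM in neuroblast-like cells, 102, 168 and 218 CPM in ganglion-like cells, and 0, 28.5 and 41.2 CPM in Schwann-like cells. The Schwann-like range lay below both others. Neuroblast-like exceeded Schwann-like cells by 2.67 ± 0.18 (edgeR adjusted p = 4.50e-11), and ganglion-like exceeded Schwann-like cells by 2.37 ± 0.20 (adjusted p = 2.91e-10), each in 10 of 10 mice. Between neuroblast-like and ganglion-like cells the Sms difference was 0.32 ± 0.15 (adjusted p = 0.0611, 9 of 10 mice). That missed the threshold, but 9 of 12 alternative settings passed it, among them leaving out #2 (0.37, adjusted p = 0.0393). Of the others, at least 20 cells per sum was the same fit as the main one.

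Amd1, S-adenosylmethionine decarboxylase, had fewer UMIs. It stood at 48.3 ± 19.0 CPM in neuroblast-like cells (0 in #2, 36.8 to 63.5 in the other mice), 30.5 ± 16.8 in ganglion-like and 36.9 ± 22.6 in Schwann-like cells. It was higher in neuroblast-like than ganglion-like cells by 0.91 ± 0.22 (edgeR adjusted p = 0.00122, 8 of 10 mice), and the exceptions were #1 and #2. Against Schwann-like cells the difference was 0.03 ± 0.22 (adjusted p = 0.919). Amd2, a nearly identical copy, had 4.30 ± 3.08 CPM in neuroblast-like cells, and reads that fit both genes could not be assigned, so Amd1 levels are uncertain to that extent.

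Oaz1, the major antizyme, was counted in every class of every mouse compared. Its lowest, median and highest values were 2003, 2148 and 2798 CPM in neuroblast-like cells, against 2158, 3262 and 4993 CPM in ganglion-like cells. The means were 2238 ± 231 and 3517 ± 819 CPM (SD, n = 10), and all 10 mice were lower in neuroblast-like cells (log2 difference -0.65 ± 0.11, edgeR adjusted p = 1.71e-05). Schwann-like cells had 2435 ± 162 CPM of Oaz1, and the difference from neuroblast-like cells was -0.26 ± 0.21 (adjusted p = 0.282), or -0.39 (adjusted p = 0.00141) without #2. The scaling of library sizes shifted log2 fold changes there by -0.06 with all 10 mice and by -0.25 without #2. Under 8 of 12 alternative settings the Oaz1 difference did not pass. Not all of these were separate fits. Leaving out single cells that held over 50% of a member's UMIs repeated the main fit. At least 20 cells per sum repeated the fit without #2. Ganglion-like exceeded Schwann-like cells by 0.33 ± 0.14 (adjusted p = 0.0444, 9 of 10 mice), a call lost without the mouse as block.

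Oaz2, the second antizyme, changed more between classes. Its lowest, median and highest values were 183, 223 and 286 CPM in neuroblast-like and 297, 522 and 548 CPM in ganglion-like cells, which did not overlap. The means of 229 ± 36.6 and 482 ± 81.6 CPM differed by -1.08 ± 0.12 (edgeR adjusted p = 1.33e-07, lower in 10 of 10 mice). Schwann-like cells had 124 ± 71.1 CPM, less than neuroblast-like cells by 0.57 ± 0.18 (adjusted p = 0.0091) and less than ganglion-like cells by 1.65 ± 0.18 (adjusted p = 1.90e-08). The highest Oaz2 level of any class was in myofibroblast-like cells, at 979 ± 356 CPM (n = 9), beyond the spread of the next class, ganglion-like cells.

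Azin1, which counteracts the antizymes, was higher in Schwann-like cells than in both neuronal classes, at 66.2 ± 26.9 CPM, against 43.2 ± 13.3 in neuroblast-like and 38.3 ± 17.2 in ganglion-like cells. In Schwann-like cells it ran from 59.4 to 103 CPM, apart from #2 with 0 UMIs. Azin1 was lower in neuroblast-like than Schwann-like cells (log2 difference -1.12 ± 0.21, edgeR adjusted p = 6.48e-05, 8 of 10 mice), and lower in ganglion-like than Schwann-like cells (-1.37 ± 0.21, adjusted p = 5.33e-06). Between the neuronal classes the difference was 0.12 ± 0.20 (adjusted p = 0.736).

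Sat1, the acetyltransferase of polyamine breakdown, varied widely between classes. Macrophage-like cells had 1159 to 2871 CPM (median 2384), Schwann-like cells 594 to 1023 CPM (median 745), endothelial-like cells 361 to 732 CPM (median 449.8), neuroblast-like cells 60.1 to 212 CPM (median 102) and ganglion-like cells 40.9 to 194 CPM (median 78.5). Of these 5 ranges, that of macrophage-like cells lay above all others and those of both neuronal classes lay below the other 3. Sat1 was lower in neuroblast-like than Schwann-like cells (log2 difference -3.15 ± 0.24, edgeR adjusted p = 1.88e-10) and lower in ganglion-like than Schwann-like cells (-3.39 ± 0.21, adjusted p = 2.66e-12). Neuroblast-like and ganglion-like cells differed by 0.15 ± 0.24 (adjusted p = 0.577). In the order of class means, the steps from macrophage-like (2185 ± 551 CPM) to Schwann-like (789 ± 127), to endothelial-like (492 ± 127) and to myofibroblast-like cells (193 ± 144) each exceeded the larger SD of the pair.

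Smox, spermine oxidase, followed Sat1 in part. It had 121 ± 71.9 CPM in Schwann-like, 115 ± 76.5 in endothelial-like and 85.5 ± 94.3 in macrophage-like cells, against 16.1 ± 13.3 in neuroblast-like and 11.8 ± 6.28 in ganglion-like cells. Outside #2, where 2 UMIs gave 53.8 CPM, neuroblast-like cells lay between 9.69 and 13.1 CPM. Smox was lower in neuroblast-like than Schwann-like cells (log2 difference -3.64 ± 0.25, edgeR adjusted p = 3.46e-11, 9 of 10 mice), and the exception was #2, with 0 Smox UMIs among 4088 in Schwann-like cells. Between the neuronal classes it differed by 0.02 ± 0.29 (adjusted p = 0.961).

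**Figure D3:**
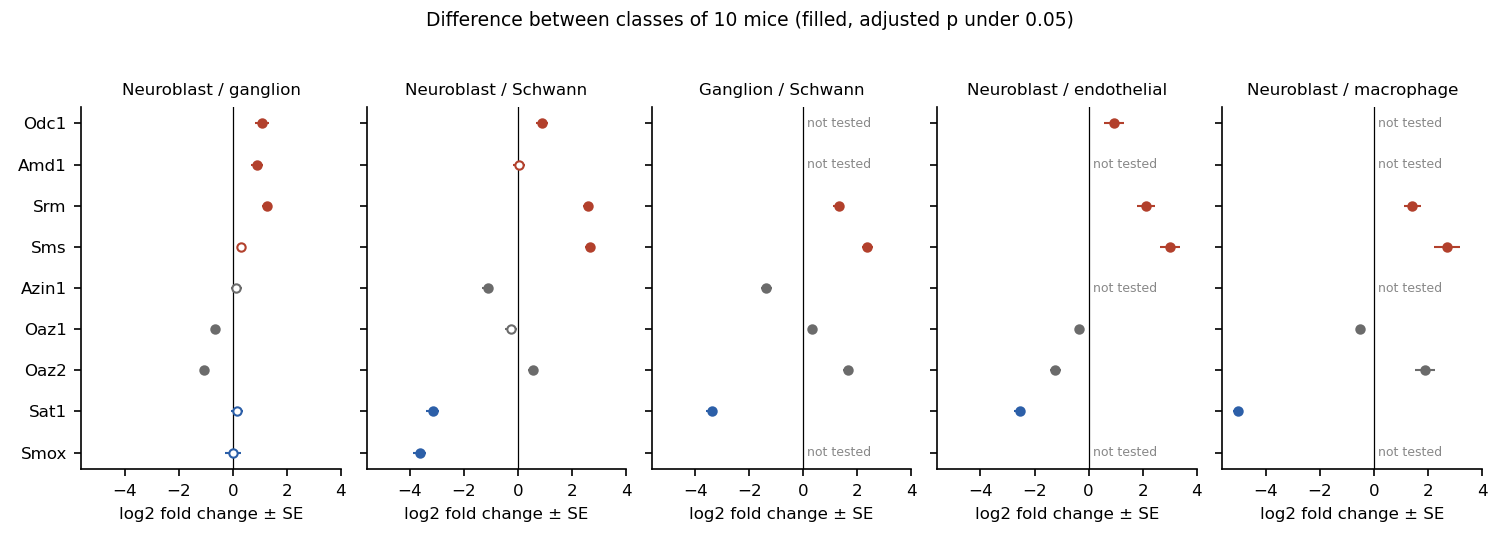
Log2 fold change ± SE of the 9 members between classes of the 10 3-week-old Th-MYCN+/- mice. Filled points passed the test and open points did not. Neuroblast-like against Schwann-like cells, Sms (2.67) and Srm (2.59) lie on the right of 0 and Sat1 (-3.15) and Smox (-3.64) on the left. Oaz1 against endothelial-like (-0.34) and macrophage-like cells (-0.52) turned positive under some settings.

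The other class comparisons had fewer members above the filter on low counts, and which members passed it depended on the class where they were high. Between ganglion-like and Schwann-like cells 6 members were tested, without Odc1, Amd1 and Smox, and 68.6% of 3152 genes passed (34.9% higher and 33.7% lower). Besides the values above, Srm was higher in ganglion-like cells by 1.31 ± 0.20 (edgeR adjusted p = 3.78e-06). Against endothelial-like cells, where 65.2% of 2142 genes passed (34.6% higher and 30.5% lower), Amd1, Azin1 and Smox were not tested. Neuroblast-like cells were higher in Sms (3.03 ± 0.37, adjusted p = 9.01e-07), Srm (2.13 ± 0.32, adjusted p = 1.23e-05) and Odc1 (0.94 ± 0.37, adjusted p = 0.0324) and lower in Sat1 (-2.55 ± 0.19, adjusted p = 9.59e-10) and Oaz2 (-1.23 ± 0.20, adjusted p = 3.30e-05). The Odc1 call was lost with log-normalized clustering (0.68, adjusted p = 0.0704), and the Oaz2 call without the filter on low counts (-0.26, adjusted p = 0.469). Against macrophage-like cells, where 70.9% of 1306 genes passed (41.7% higher and 29.2% lower), Odc1, Amd1, Azin1 and Smox were not tested. There Sms (2.71 ± 0.47, adjusted p = 1.12e-05), Oaz2 (1.90 ± 0.36, adjusted p = 4.59e-05) and Srm (1.42 ± 0.32, adjusted p = 0.000297) were higher and Sat1 (-5.01 ± 0.18, adjusted p = 1.03e-19) was lower, also at resolution 1.0, where the B-like cells stood apart (-5.55).

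For Oaz1 these last comparisons gave no stable direction. The scaling of library sizes (TMM) shifted every log2 fold change by -0.31 against endothelial-like and by -0.61 against macrophage-like cells. The fitted Oaz1 difference was -0.34 ± 0.13 (edgeR adjusted p = 0.0277) and -0.52 ± 0.16 (adjusted p = 0.00448), with 5 of 10 mice higher in neuroblast-like cells in each. Mean levels of Oaz1 were 2238 CPM in neuroblast-like, 2281 in endothelial-like and 2065 in macrophage-like cells. DESeq2 gave -0.14 (adjusted p = 0.189) and 0.04 (adjusted p = 0.797), and without #2 the values were -0.20 (adjusted p = 0.342) and -0.15 (adjusted p = 0.482).

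Set against each other, the UMIs of the 4 synthesis genes exceeded those of the 2 breakdown genes in the neuronal classes and fell short of them in Schwann-like, endothelial-like and macrophage-like cells. As genes yield UMIs at different rates, only the difference of this ratio between classes can be read, not its sign. Each sum had 1 UMI added before the ratio was taken, so thin sums also gave a value. In #2, 0 against 3 UMIs gave -2.0 (Schwann-like) and 0 against 9 UMIs gave -3.32 (macrophage-like). The log2 ratio of neuroblast-like cells was 2.46 ± 0.67 (SD, n = 10, range 1.22 to 3.52). That of ganglion-like cells was 1.85 ± 0.82 (0.67 to 3.26). The ratio was -2.45 ± 0.38 (-2.87 to -1.74) in Schwann-like, -1.90 ± 0.45 (-2.51 to -0.87) in endothelial-like and -3.64 ± 0.86 (-5.01 to -2.24) in macrophage-like cells. These 3 ranges lay below both neuronal ranges. Fibroblast-like cells stood at 0.22 ± 1.78 (-2.81 to 2.58, 9 mice) and myofibroblast-like cells at -0.61 ± 1.25 (-3.17 to 1.0, 9 mice), so their ranges were wide. The 6-week-old mouse lay at 3.06 in neuroblast-like, 2.92 in ganglion-like, -2.54 in Schwann-like, -1.12 in endothelial-like and -3.10 in macrophage-like cells. The WT mouse lay at 2.21 in ganglion-like and -2.76 in Schwann-like cells, and at -2.09 in neuroblast-like cells, where 3 synthesis UMIs stood against 16 breakdown UMIs. Of its 175 synthesis UMIs in ganglion-like cells, 71 were Odc1 UMIs of the 1 cell described above, as were 63 of 305 in #9. The ratio was not recomputed without these cells. With log-normalized clustering the WT mouse had too few neuroblast-like cells for a sum, so its value of -2.09 depends on the clustering. The ratio is of UMIs and not of enzyme activity, and no test was run on it.

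**Figure D4:**
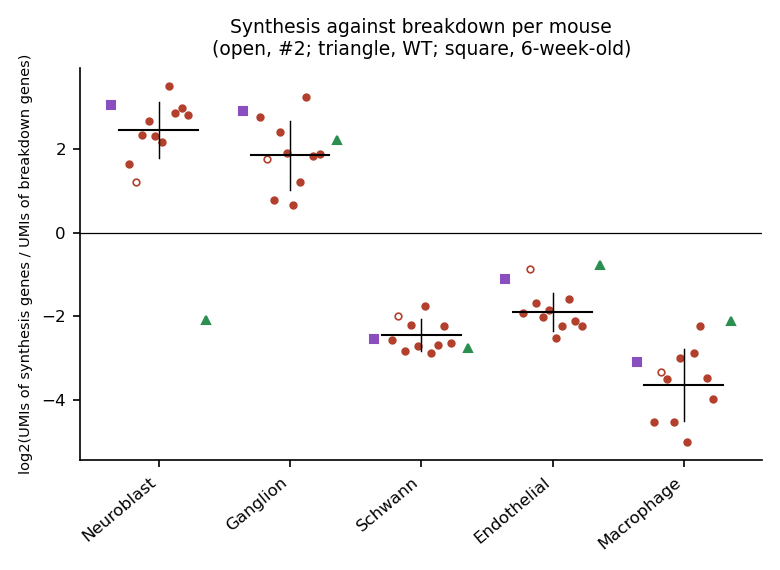
Log2 ratio of synthesis UMIs (Odc1, Amd1, Srm, Sms) to breakdown UMIs (Sat1, Smox) per mouse and class, with mean and SD of the 10 3-week-old Th-MYCN+/- mice as lines. The open dot is #2, the triangle WT and the square the 6-week-old mouse. Each sum had 1 UMI added. Neuroblast-like (mean 2.46) and ganglion-like cells (1.85) lie above the other 3 classes, except for the WT mouse in neuroblast-like cells (-2.09).

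To compare shares of cells, every cell was thinned to 500 UMIs, which left out 149 neuroblast-like, 531 ganglion-like, 572 Schwann-like and 43 macrophage-like cells of the 12 libraries with fewer. Odc1 was then seen in 4.60% ± 1.08 of neuroblast-like, 2.06% ± 2.57 of ganglion-like and 1.73% ± 1.20 of Schwann-like cells (mean ± SD over 10 mice). In the same order, Sms was seen in 10.7% ± 2.19, 7.31% ± 4.88 and 0.99% ± 0.94, and Srm in 12.6% ± 3.24, 7.68% ± 4.66 and 1.64% ± 1.16. The ganglion-like spread was wide. Sat1 was seen in 4.39% ± 1.88 of neuroblast-like, 5.28% ± 5.44 of ganglion-like, 34.9% ± 4.43 of Schwann-like and 50.2% ± 15.8 of macrophage-like cells (9 mice for the last). Before thinning, when the median cell had 4414 UMIs in the neuroblast-like, 1141 in the ganglion-like and 947 in the Schwann-like class, Odc1 was seen in 33.5%, 9.34% and 4.08% of cells pooled over the 12 libraries. Most ganglion-like cells were those of #2, where 49 of 1535 had an Odc1 UMI, and without #2 the pooled shares were 34.0%, 17.0% and 4.09%. The lowest class shares of Odc1 do not separate low expression from free RNA, which was estimated at 1.45% to 8.64% of the UMIs in cells from Npy, a neuronal peptide gene, in Schwann-like and endothelial-like cells.

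The question of whether members differed with the transgene within 1 class was asked in neuroblast-like cells thinned to 1000 UMIs, split in each mouse by whether a human MYCN UMI was seen. In the 9 mice with enough cells (#2 had 9 cells of that depth), 6 members were tested and 0 passed, beside 0.0995% of 2010 genes (2 genes, or 0.0498% in each direction). The transgene was not taken out of the genes tested. Its own difference is set by the split and is no result. The members' median log2 fold change was -0.02, and 0.00 over all genes. Odc1 had 84.2 ± 44.6 CPM with and 98.7 ± 28.5 CPM without a transgene UMI, and was higher with it in 4 of 9 mice (-0.22 ± 0.25, edgeR adjusted p = 0.916). Sat1 differed by 0.30 ± 0.23 (adjusted p = 0.893), and Srm by 0.00 ± 0.08 (adjusted p = 0.999). At this depth a cell without a transgene UMI may still express the transgene.

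Over the 10 mice, the neuroblast-like level of Odc1 correlated with that of the transgene at Pearson r = 0.71 (permutation p = 0.0437, adjusted over 9 members 0.308) and Spearman rho = 0.47 (permutation p = 0.181, adjusted 0.542). Without #2 and #10, the mice farthest from the median transgene level, r was 0.59, and without #2 alone 0.30, so much of the relation rested on #2. No member passed after adjustment. Oaz2 had r = 0.41 (rho = 0.49), 0.77 without #2 and #10 and 0.20 without #2 alone, and Smox had r = -0.69 (rho = -0.48), or 0.12 without them.

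Within neuroblast-like cells, Sat1 was lower where cell cycle expression was high. Cells thinned to 1000 UMIs were ranked in each of 9 mice by their UMIs of 94 cell cycle genes, and the upper tertile was compared with the lower. Of 5 members tested, 1 passed, beside 30.5% of 1709 genes, 15.0% higher and 15.6% lower (522 genes, or 320 without the mouse as block). A share of 1 in 5 is not above that background. The cell cycle genes that split the cells were not taken out of the genes tested, and their calls are set by the split. Sat1 had a mean of 87.9 ± 50.5 CPM in the upper and 163 ± 55.0 CPM in the lower tertile (SD, n = 9). It ranged from 30.3 to 192 CPM in the former and from 96.5 to 275 CPM in the latter, and was lower in the upper tertile in 8 of 9 mice, with #6 the exception. The difference was -1.05 ± 0.26 (edgeR adjusted p = 0.00157). At 500 UMIs per cell Sat1 fell under the filter and was not tested.

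Markers of other cells moved with it. The summed 13 Schwann markers had 266 CPM (173 to 382) in the upper and 1304 CPM (110 to 4708) in the lower tertile, higher in the lower in 8 of 9 mice. The summed 15 ganglion markers had 2866 CPM (2516 to 3286) and 5753 CPM (3632 to 8861), higher in the lower in 9 of 9 mice. The 9 endothelial markers had 48.5 and 57.7 CPM and the 10 macrophage markers 10.4 and 12.7 CPM, higher in the lower tertile in 4 and 6 of 9 mice. Their part in the Sat1 difference was not tested.

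Sms lay the other way, at 216 ± 58.0 CPM in the upper and 172 ± 64.2 CPM in the lower tertile (0.44 ± 0.19, edgeR adjusted p = 0.0765), and passed under 3 other settings. Srm differed by -0.45 ± 0.24 (adjusted p = 0.153) and was lower in the upper tertile in 8 of 9 mice. The exception for Srm was #7, at 1735 CPM in the upper and 286 CPM in the lower tertile, which lifts the upper mean to 357 CPM. Oaz2 differed by -0.41 ± 0.19 (adjusted p = 0.101) and Oaz1 by 0.07 ± 0.07 (adjusted p = 0.494). Odc1, Amd1, Azin1 and Smox were too low to be tested in the main setting. Odc1, from 1 to 21 UMIs per sum, was higher in the upper tertile in each of the 9 mice except #1 and #6. It had 91.4 against 99.4 CPM in #1 and 57.7 against 157 CPM in #6. With unnamed clusters added, 6 members were tested and 2 were higher, Sms and a member too low in the main setting.

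**Figure D5:**
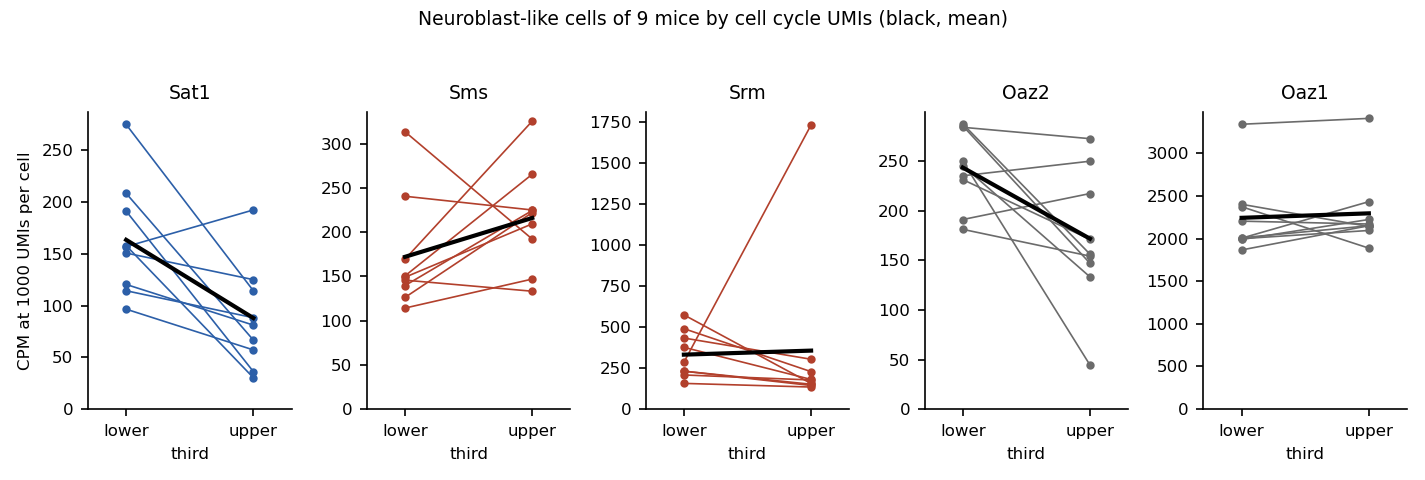
Level (CPM, from 0, cells thinned to 1000 UMIs) of the 5 members tested in neuroblast-like cells of the lower and upper tertile of cell cycle UMIs. Each line is 1 of 9 mice and the black line their mean. Sat1 falls from 163 to 87.9 CPM on average, in 8 of 9 mice, and the steep Srm line is #7.

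For the WT and the 6-week-old mouse, 1 animal each, levels were set beside the lowest and highest of #1 to #10 without a test. Among members with a mean of at least 50 CPM in the class, that mouse included, 1 of 5 (WT, Schwann-like), 1 of 6 (WT, ganglion-like) and 1 of 6 (WT, endothelial-like) lay outside, where 11.2%, 15.2% and 16.6% of all such genes did. Oaz1 in WT Schwann-like cells was at 2691 CPM (95% Poisson interval from 630 UMIs, 2485 to 2909), just above 2202 to 2634 CPM. Sat1 in WT endothelial-like cells was at 167 CPM from 11 UMIs, below 361 to 732 CPM. Odc1 in WT ganglion-like cells was the value carried by 1 cell. It passed the limit of 50 CPM there, and in endothelial-like cells, only through the WT value (means of the 10 mice 46.1 and 45.4 CPM), so its place in these counts supports nothing. Without single cells that held over 50% of a member's UMIs, 5 members passed the limit in ganglion-like cells and 1 of them lay outside, Sms, which at 99.8 CPM lay just below 102 to 218 CPM.

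In the 6-week-old mouse 1 of 6 (neuroblast-like), 1 of 5 (ganglion-like) and 1 of 5 members (Schwann-like) lay outside, beside 12.2%, 6.67% and 5.53% of all genes. They were Sms in neuroblast-like cells (246 CPM, range of the 10 mice 161 to 242), Oaz2 in ganglion-like cells (577 CPM, range 297 to 548) and Oaz1 in Schwann-like cells (2111 CPM, range 2202 to 2634). Odc1 (88.5 CPM) and Srm (339 CPM) of its neuroblast-like cells lay within the limits of #1 to #10, and its class sum of 1818705 UMIs leaves small counting intervals. No difference by genotype or age can be drawn from 1 mouse.

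The wider list of 25 genes held enzymes next to the pathway. Between neuroblast-like and ganglion-like cells 13 were tested, 4 higher and 6 lower, and against Schwann-like cells 12 were tested, 4 higher and 4 lower, so their shares were near the background above. Azin2, an antizyme inhibitor of neurons, was lower in neuroblast-like than ganglion-like cells (29.1 ± 9.48 against 96.2 ± 20.3 CPM, log2 difference -1.71 ± 0.17, edgeR adjusted p = 2.28e-08, 10 of 10 mice). It was higher in ganglion-like than Schwann-like cells by 2.11 ± 0.28. Atp13a2, the lysosomal polyamine exporter, was lower in neuroblast-like than ganglion-like cells (-1.24 ± 0.19), as was Arg1, which makes ornithine from arginine (-1.48 ± 0.35). Mri1, of the methionine salvage pathway, was higher by 1.18 ± 0.26.

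Eif5a, the protein that carries hypusine, an amino acid made from spermidine, was higher in neuroblast-like than Schwann-like cells by 1.28 ± 0.19 (2314 ± 339 against 855 ± 147 CPM, edgeR adjusted p = 4.45e-06, 10 of 10 mice). Dohh, which completes hypusine, was higher in ganglion-like than Schwann-like cells by 1.32 ± 0.19. Atp13a2 was higher in neuroblast-like than Schwann-like cells by 1.49 ± 0.31, and Enoph1, of methionine salvage, was lower (-1.40 ± 0.22). Slc3a2, an amino acid transporter subunit linked to polyamine export, was lower in neuroblast-like than Schwann-like (-1.57 ± 0.24), endothelial-like (-3.37 ± 0.15) and macrophage-like cells (-2.54 ± 0.23), and lower in ganglion-like than Schwann-like cells (-1.14 ± 0.24). Mat2b, a subunit of the enzyme that makes S-adenosylmethionine, was lower than in endothelial-like cells (-1.08 ± 0.27), and Mat2a, its catalytic partner, was higher than in macrophage-like cells by 1.21 ± 0.31.

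The genes whose levels ran most like that of Odc1 over 70 class sums of the 10 mice, among 3431 genes, were Marcksl1 (Pearson r = 0.67), Ppp1r14b (0.66), Tmem242 (0.63), Dut (0.62) and Eef1e1 (0.61). Sms (0.45, place 221) and Srm (0.35, place 738) came further down. For Sat1 they were Unc93b1 (0.75), Asah1 (0.73), Hmox1 (0.71), Tpp1 (0.71) and Mcl1 (0.70), with Smox at 0.54 (place 90). The sums share mice, libraries and depth, and the values are given as a description.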

How the data were processed

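SMG of 12 mice were profiled with Chromium 3' v1 libraries. The authors aligned reads with Cell Ranger to mm10 plus the human MYCN transgene and deposited raw UMI counts of all barcodes (matrix header, version 3.0.2). Cells were called by an EmptyDrops procedure (barcodes over 100 UMIs, 10000 draws, FDR 0.01), which on simulated data called 300 of 300 shallow cells and 6 of 1500 empty droplets. Of 16223 barcodes called, 4035 had under 200 genes, 222 had over 10% mitochondrial and 0 over 60% ribosomal UMIs, leaving 12070. Scrublet called 58 (0.481%), which was taken as failed, so no doublets were removed. Cells were clustered with Seurat 5.3.0 (sctransform 0.4.2, resolution 0.5) without 38 genes (members, wider list, transgene and spikes) and named from marker lists that leave out the members. 

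UMIs were summed per mouse and class (at least 5 cells) and tested with edgeR 4.0.16 (TMM, filterByExpr, quasi-likelihood, Benjamini-Hochberg, 0.05), with the mouse as block because both classes came from 1 animal and library. Deviations of paired sums correlated at -0.03 to 0.28 between classes and 0.10 to 0.58 within neuroblast-like cells. The SE is the log2 fold change over the square root of F. On simulated data for neuroblast-like against ganglion-like cells, with 7469 genes tested, 188 of 194 genes changed by 1.5 on the log2 scale and 4 unchanged genes were called. The simulation had 200 changed genes, as many up as down, the same dispersion for all genes and no effect of the mouse. In the data 67.7% of genes passed in that comparison, a setting that the simulation did not cover. DESeq2 1.42.0 and other settings were alternatives. Correlations used log2(CPM + 10) and 100000 permutations, two-sided. All 9 members are named, and genes of the wider list where past the threshold with an absolute log2 fold change of at least 1. Genes most alike had a mean of at least 50 CPM, but Odc1 was kept as a target below it. Intervals cover counting error only. The members and lists were chosen with earlier results of these data known. Tools were R 4.3.3, Python 3.11.15, scipy 1.17.1 and scanpy 1.11.5.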

Additional observations from a re-analysis of the deposited data

Results flagged for a closer look

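A mouse far from the other 9 was found in 13 of 50 groups of 10 values. The cutoff is set for about 5% of groups of normal values. Many of these values come from few UMIs, and the groups share mice, so the 13 cannot be read against that share. In neuroblast-like cells the lowest Odc1 (26.9 CPM, next 91.9) and Amd1 (0 CPM, next 36.8) and the highest Smox (53.8 CPM, next 13.1) were those of #2, whose class sum holds 37201 UMIs, and the lowest Sms (161 CPM, next 199) and highest Oaz1 (2798 CPM) were those of #7. In ganglion-like cells Odc1 was highest in #9 (131 CPM, next 61.4, carried by 1 cell) and Amd1 in #1 (71.7 CPM from 7 UMIs). Azin1 in Schwann-like cells was lowest in #2 (0 of 4088 UMIs). Thin sums gave the highest Srm in endothelial-like cells (345 CPM, #2, 14 UMIs), Smox in endothelial-like cells (311 CPM, #8, 5 UMIs), and in macrophage-like cells Amd1 (110 CPM, #7, 2 UMIs), Sms (154 CPM, #8, 3 UMIs) and Oaz2 (110.0 CPM, #7, 2 UMIs).

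In 6 of 90 contrasts between classes set side by side with the 10 mice, the WT mouse went the other way from all of them. The log2 ratio of CPM (each plus 10) in its neuroblast-like cells was -0.93 for Srm against ganglion-like cells (nearest of the 10 mice 0.84), -2.14 for Odc1 (0.19) and 0.42 for Sat1 (-1.67) against Schwann-like cells, 2.73 for Sat1 (-1.30) against endothelial-like cells, and -1.49 for both Srm (0.79) and Oaz2 (0.95) against macrophage-like cells. All 6 rest on the 34 neuroblast-like cells of WT, with 12896 UMIs, a sum that log-normalized clustering did not give, and the differences were not tested.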

How the results depend on the processing

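Of 510 values of single members under alternative settings, 452 kept their direction and side of the threshold, and of 286 counts and other summary values 236 stayed within 1.5 times or 1 SD. Some settings repeated another fit, so part of this agreement was fixed in advance. At least 20 cells per sum repeated the main fit between neuroblast-like and ganglion-like cells, as did leaving out #2 in both splits of neuroblast-like cells. Leaving out single cells repeated it for neuroblast-like against Schwann-like and macrophage-like cells. In both Schwann-like comparisons, leaving out #2 and at least 20 cells per sum were 1 fit. The synthesis to breakdown ratio was recomputed under 2 alternatives, log-normalized clustering and free RNA subtracted, and moved by less than its SD in the 5 classes compared (Schwann-like -2.45, then -2.63 and -2.55). The calls of Odc1, Srm, Sms, Oaz2, Sat1, Smox and Azin1 between neuroblast-like and Schwann-like cells, and of Srm, Odc1, Amd1, Oaz1 and Oaz2 between neuroblast-like and ganglion-like cells, held under each setting in which the gene was tested. Smox was not tested against Schwann-like cells with unnamed clusters added, where 8 members were tested and 2 were lower. Causes of the changes below were not tested. Without a filter on low counts, genes called were 7701 (neuroblast-like against ganglion-like), 7590 (against Schwann-like), 6841 (ganglion-like against Schwann-like), 7035 (neuroblast-like against endothelial-like), 6213 (against macrophage-like), 12 (transgene split) and 789 (cell cycle), since more genes were tested, with 4 members lower between ganglion-like and Schwann-like cells, 6 higher against endothelial-like and 6 against macrophage-like cells. DESeq2 called 975 genes higher and 567 lower against endothelial-like cells, where edgeR called 742 and 654, and 762 and 235 against macrophage-like cells, where edgeR called 545 and 381. DESeq2 called 1 gene in the transgene split and 1 member lower against macrophage-like cells. Without the replicate block, 1 gene was called in the transgene split and 320 by cell cycle, Oaz1 between ganglion-like and Schwann-like cells lost its call (0.33), Sms against ganglion-like cells passed, and no other member changed its call. Without #2, genes called were 2647 against endothelial-like and 2467 against macrophage-like cells, with 1 member lower in the latter, and with at least 20 cells per sum 2353 and 1. Under the strict cell filter (500 genes, 5% mitochondrial) they were 2718 against endothelial-like cells, 2653 against macrophage-like cells (5 members higher, 1 lower) and 4 in the transgene split, with 1 member higher by cell cycle. Log-normalized clustering gave 1 member lower against macrophage-like cells, 1 gene in the transgene split and 1 member higher by cell cycle. Thinning to 500 UMIs left 195 genes and 0 members by cell cycle. With unnamed clusters added (chosen after seeing the data), genes called were 1394 against macrophage-like cells (1 member lower), and 2 members were higher by cell cycle. Removing the highest 5% of Scrublet scores left 1 member lower between ganglion-like and Schwann-like cells.

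Directions turned as follows. Against ganglion-like cells, Sat1 was -0.15 at resolution 1.0, and Smox -0.14 without the block, -0.0112 without #2 and -0.0052 with log-normalized clustering. Against Schwann-like cells, Amd1 was -0.0666 without the block, -0.0446 with free RNA subtracted, -0.063 with the strict filter and -0.0684 with unnamed clusters. Oaz1 was 0.61 unfiltered against endothelial-like cells, and against macrophage-like cells 0.0423 (DESeq2), 0.51 (unfiltered), 0.0011 (log-normalized), 0.17 (strict) and 0.0642 (unnamed clusters). In the transgene split Odc1 was 0.0311 (unnamed clusters), Srm -0.0132 (DESeq2), -0.15 (unfiltered), -0.10 (no block), -0.24 (500 UMIs) and -0.0026 (unnamed clusters), Sms 0.21 (strict), Oaz1 0.0565 (log-normalized), 0.0337 (strict) and 0.0668 (unnamed clusters), Oaz2 0.24 (500 UMIs), 0.0982 (log-normalized) and 0.0717 (strict), and Sat1 -0.0913 (log-normalized). Correlations with the transgene turned without #2 for Amd1 (-0.15), Sms (0.00791) and Azin1 (0.17). Genes outside the 10 mice's range, at a mean of at least 20 CPM, were 585 (WT, Schwann-like), 944 (WT, ganglion-like), 666, 373 and 305 (6-week-old, neuroblast-like, ganglion-like and Schwann-like). With the strict filter they were 745 (3 members) in WT Schwann-like cells, 626 (0 members) in 6-week-old neuroblast-like and 322 (2 members) in 6-week-old Schwann-like cells, and log-normalized clustering gave 0 members (WT, Schwann-like), 2 (6-week-old, neuroblast-like), 0 (6-week-old, ganglion-like) and 2 (6-week-old, Schwann-like). Odc1 in WT ganglion-like cells was 49.9 CPM without the cell that held most of it. Depth limits the members most in endothelial-like (16099 to 134583 UMIs per mouse) and macrophage-like sums (3140 to 104575 UMIs), where several had under 5 UMIs per mouse.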

Other observations

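The small classes were not compared, and their values are given as levels. In myofibroblast-like cells (9 mice of the 3-week-old Th-MYCN+/- group) Odc1 had 0 UMIs in each mouse, Oaz1 had 2822 ± 1097 CPM and Sat1 had 193 ± 144 CPM. In fibroblast-like cells (9 mice) Azin1 had 0 UMIs, Oaz1 had 2069.8 ± 614 CPM, Oaz2 had 199.7 ± 193 CPM, and Odc1 had a median of 0 and a highest value of 616 CPM. That highest value, of #4, came from 9 UMIs in 1 of 14 cells. NKT-like cells reached 5 cells in 2 mice, with Oaz1 at 1584 and 2861 CPM.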
